A study of Citrus unshiu with 6 samples.

Results

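Chitinase Cs8g01840 and endochitinase 1-like orange1.1t05124 are described across control peel (CK) and peel with roughing disorder (RD) of the Satsuma mandarin “Yamashitabeni wase” (Citrus unshiu). They are 2 of the 23099 genes with FPKM values, and 2 of the 14 described as chitinases or hevein-like proteins. Both were chosen by their measured FPKM, as abundant transcripts of young peel, so their levels are given as a description and were not tested. FPKM counts sequenced fragments relative to transcript length and to library size, so it is a level per length and can be compared between genes. The libraries were CK30, CK80, and CK170 from control peel and RD30, RD80, and RD170 from RD peel, where the number is the days after full bloom (DAFB). These dates stand for the stages of cell division, cell enlargement, and maturity. All trees were of this cultivar, grafted on trifoliate orange and grown under the usual orchard management. RD was induced by removing most fruits at fruit set so that a few upward ones remained, whereas the CK trees kept theirs. The disorder, the tree, the fruit load, and possibly the fruit position cannot be told apart. Each library was 1 pool of 3 peel samples, so no replicate check was possible, neither SD nor p is given, and each ratio compares 1 pool with another. In whole peel, fewer cells of a type and less RNA per cell cannot be told apart either.

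Chitinases cut chitin, a polymer of N-acetylglucosamine that stiffens fungal cell walls and insect cuticles and is not made by plants. Plants make several classes of them, many counted among the pathogenesis-related proteins, and chitin fragments released from a fungal wall are perceived by lysM domain receptors at the plant cell surface. Some chitinases are also abundant in healthy fruit, flowers, or seeds with no infection present.

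The summed FPKM lay between 587201 and 628627 per library, and 16026 to 17155 genes reached 1 FPKM. Of 42 genes named as terpene synthases, enzymes of the peel oil, 17 to 26 reached 1 FPKM in each library, with a summed level of 1285 to 1928. Of 15 genes of cuticle lipids, the wax and cutin layer at the peel surface, 7 to 9 reached 1 FPKM, with sums of 108 to 440. The 11 genes listed for seed and juice sac, tissues that a peel sample could also hold, summed to 382, 1029, and 2033 in CK30, CK80, and CK170 and to 434, 1144, and 1737 in RD30, RD80, and RD170. Most of this came from late embryogenesis abundant protein Lea5 and limonoid UDP-glucosyltransferase, and the vicilin-like seed storage gene was at 0.51 or less throughout. The list was thus lowest at 30 DAFB, where both chitinases were highest. Its part in their levels was not tested.

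Cs8g01840 was among the most abundant transcripts of young peel and close to absent from mature CK peel. Its level was 5036 FPKM in CK30, 43.3 in CK80, and 0.67 in CK170, against 2142, 435, and 6.64 in RD30, RD80, and RD170. Among all genes it ranked 6 in CK30, 16 in RD30, 131 in RD80, and 2795 in CK80. In mature peel its rank was 17118 in CK170 and 11108 in RD170. The CK and RD libraries thus crossed: CK peel was higher at 30 DAFB, and RD peel at 80 and 170 DAFB.

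The endochitinase 1-like gene orange1.1t05124 started higher and ended lower. An endochitinase cuts within the chitin chain and not from its end. Its level was 6891 FPKM in CK30, 24.5 in CK80, and 0.25 in CK170, against 2184, 153, and 0.41 in RD30, RD80, and RD170. It ranked 3 in CK30, 4990 in CK80, and 18606 in CK170, against 14, 561, and 17868 in RD30, RD80, and RD170. At maturity it was therefore below 1 FPKM in both peels.

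Both genes had their levels in the same order, from highest to lowest CK30, RD30, RD80, CK80, RD170, and CK170. Of the 12227 genes that reached 10 FPKM in at least 1 library, 187 (1.53%) had this order. With 1 library each, whether neighbours in this order differ beyond the spread between fruits is not known. The closest neighbours were CK170 and RD170 of orange1.1t05124, both under 1 FPKM, followed by CK30 and RD30 of Cs8g01840.

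**Figure D1:**
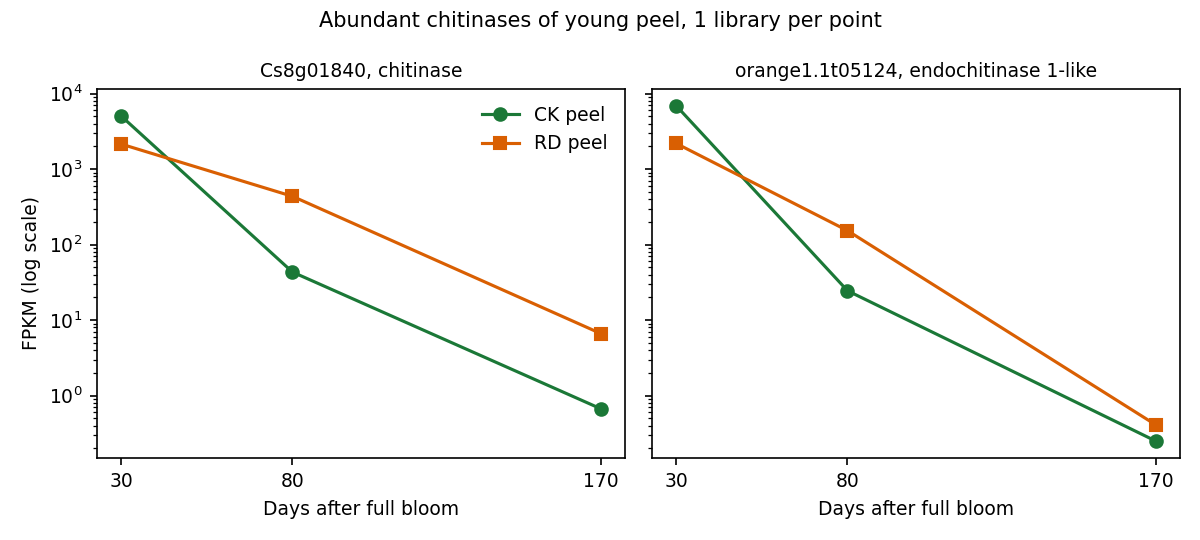
FPKM on a log axis against days after full bloom for Cs8g01840 (left) and orange1.1t05124 (right), with 1 library per point, circles for CK peel and squares for RD peel. In both panels CK peel is above RD peel at 30 days and below it at 80 days, and the lines are separate at 170 days for Cs8g01840 (0.67 and 6.64) but close for orange1.1t05124 (0.25 and 0.41).

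Summed, the pair held 2.02% of all FPKM in CK30 and 0.709% in RD30. The share was 0.0111% in CK80 and 0.0968% in RD80, and at 170 DAFB it was 0.000157% in CK peel and 0.00112% in RD peel. The balance between the genes also shifted. The level of Cs8g01840 was 0.731 times that of orange1.1t05124 in CK30 and 0.981 times in RD30. At 80 DAFB it was 1.77 times in CK peel and 2.85 times in RD peel, and at 170 DAFB 2.68 times and 16.2 times. At each stage the balance was further towards Cs8g01840 in RD peel than in CK peel, with a level of orange1.1t05124 under 1 FPKM behind the values at 170 DAFB.

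At the cell division stage both genes were lower in RD peel. A gene was called different when the FPKM ratio between the libraries was at least 2-fold and the higher library had at least 1 FPKM. Cs8g01840 was 2.35-fold lower in RD30 than in CK30 (log2 ratio of levels −1.23), and orange1.1t05124 was 3.16-fold lower (−1.66). Under this rule 6.34% of 17419 genes were lower in RD30 and 25.6% were higher, with a median log2 ratio of 0.43 over the genes that reached 1 FPKM in both libraries. Relative to this median, the log2 ratios were −1.67 for Cs8g01840 and −2.09 for orange1.1t05124. Of 17281 genes with values above 0 in both libraries, 818 had a lower ratio than Cs8g01840 and 484 a lower ratio than orange1.1t05124. The summed level of 39 heat shock genes, which respond to heat and to handling, was 4847 in CK30 and 10124 in RD30, and its part in the lower chitinase levels was not tested.

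At the cell enlargement stage the direction was the opposite. Cs8g01840 was 10.1-fold higher in RD80 than in CK80 (log2 ratio 3.33), and orange1.1t05124 was 6.25-fold higher (2.64). Here 5.20% of 17402 genes were higher and 4.86% were lower, and the median log2 ratio was 0.09, relative to which Cs8g01840 was at 3.24 and orange1.1t05124 at 2.55. Of 17346 genes with values above 0 in both libraries, 21 had a higher ratio than Cs8g01840 and 61 a higher ratio than orange1.1t05124. The heat shock genes summed to 4230 in CK80 and 3052 in RD80.

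At maturity only Cs8g01840 reached the minimum of 1 FPKM, in RD170. Cs8g01840 was 9.91-fold higher in RD170 than in CK170 (log2 ratio 3.31), at levels of 6.64 and 0.67 FPKM. For orange1.1t05124 the ratio was 1.64-fold (0.71) between levels of 0.41 and 0.25. Both levels were under the minimum, so it could not be called at any ratio. Higher levels in RD170 were called for 8.14% of 17143 genes and lower levels for 10.1%, with a median log2 ratio of −0.11, relative to which Cs8g01840 was at 3.42. Among 17017 genes with values above 0 in both libraries, 105 had a higher ratio than Cs8g01840. The heat shock sum was 4114 in CK170 and 7624 in RD170.

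The course of both chitinases, lower in RD peel at 30 DAFB and higher at 80 DAFB, was shared by 41 of the 18748 genes that reached 1 FPKM in any library (0.219%). The opposite course, higher at 30 DAFB and lower at 80 DAFB, was found for 146 genes. Of the 41 genes, 10 were also higher in RD170, Cs8g01840 among them. Cs5g25690, described as a hypothetical protein, had the same course at 30 and 80 DAFB and was likewise above 1000 FPKM in CK30, although its ratio at 80 DAFB was under the limit relative to the median gene (0.96). It was most abundant at the middle stage, with 1359 FPKM in CK30, 3849 in CK80, and 572 in CK170, against 467, 7964, and 3203 in RD30, RD80, and RD170. The remaining gene above 1000 FPKM with this course was Cs8g01850, described with the genes numbered beside Cs8g01840.

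**Figure D2:**
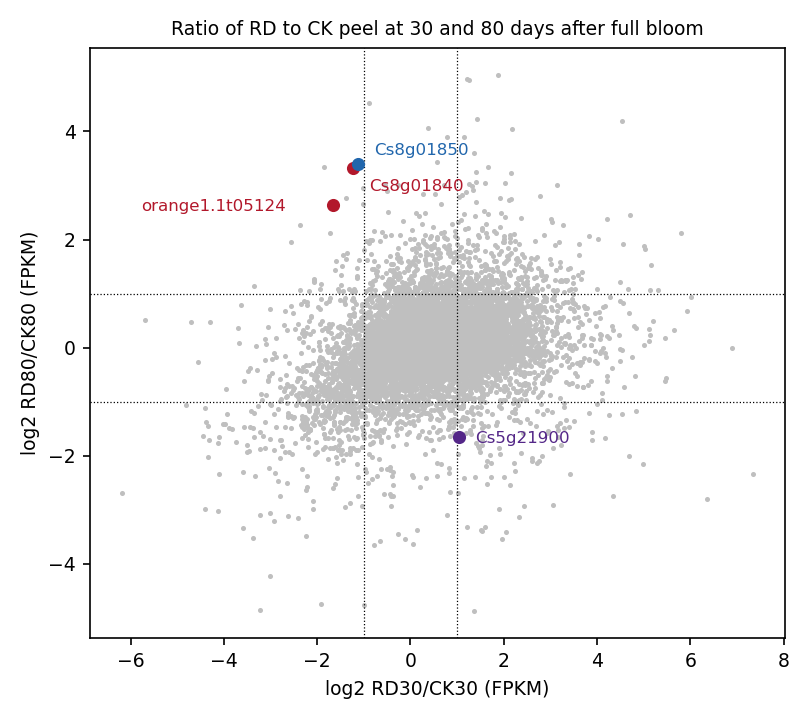
Log2 ratio of FPKM in RD to CK peel at 30 days after full bloom (horizontal) and at 80 days (vertical) for 16569 genes, each a point, with dotted lines at the 2-fold limit. Cs8g01840 (−1.23, 3.33), orange1.1t05124 (−1.66, 2.64) and Cs8g01850 (−1.13, 3.40) are at the upper left, and the chitinase gene Cs5g21900 (1.04, −1.65) is at the lower right.

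From stage to stage both genes were lower at each later date, in CK peel and in RD peel. Between 30 and 80 DAFB, Cs8g01840 was 116-fold lower in CK peel (log2 ratio −6.86) and 4.92-fold lower in RD peel (−2.30). The same step of orange1.1t05124 was 282-fold in CK peel (−8.14) and 14.3-fold in RD peel (−3.84). These steps share their libraries with the comparisons of RD and CK peel, so they are not further evidence of the crossing. Over this step 9.06% of 17387 genes were lower in CK peel and 9.44% of 17794 in RD peel. Of 17162 genes with values above 0 in CK30 and CK80, 9 had a lower ratio than Cs8g01840 and 3 a lower ratio than orange1.1t05124. In RD peel the corresponding counts were 377 and 88 of 17670.

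Between 80 and 170 DAFB, Cs8g01840 was lower by nearly the same ratio in both peels, 64.6-fold in CK peel (log2 ratio −6.01) and 65.6-fold in RD peel (−6.04). For orange1.1t05124 the step was 97.9-fold in CK peel (−6.61) and 373-fold in RD peel (−8.54), down to levels under 1 FPKM in each. Lower levels over this step were called for 17.5% of 17703 genes in CK peel and for 17.7% of 17601 genes in RD peel. In RD peel 1 gene of 17414 had a lower ratio than orange1.1t05124, and 26 had a lower ratio than Cs8g01840. In CK peel the counts were 64 and 113 of 17395.

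From the first date to the last, Cs8g01840 was 7516-fold lower in CK peel and 323-fold lower in RD peel. Of the 42 genes above 1000 FPKM in CK30, 3 were below 1 in CK170. They were the chitinase pair, which was chosen for its abundance in young peel, and orange1.1t05126. The latter is described as a lectin-related protein precursor and was named here after its values were seen. Lectins bind sugars, and some plant lectins bind chitin. The level of orange1.1t05126 was 11191 FPKM in CK30, 41.8 in CK80, and 0.15 in CK170, against 12894 in RD30 and 73.5 in RD80, and it was listed at 0 in RD170. Its log2 ratios of RD to CK peel, 0.20 at 30 DAFB and 0.81 at 80 DAFB, were not called, so this gene was abundant early and nearly absent later without a 2-fold difference at 30 or 80 DAFB.

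A higher level in RD80 was called for a minority of the early genes. In CK peel 487 genes had at least 10 FPKM in CK30 and were at least 10-fold lower in CK170. Of these, 85 (17.5%) were higher in RD80 than in CK80 and 56 (11.5%) were lower, against 5.20% and 4.86% of all genes. The median log2 ratio at 80 DAFB was 0.28 over the 482 of them with values above 0 in both libraries. In this group 2 genes had a higher ratio than Cs8g01840 and 9 a higher ratio than orange1.1t05124. These 487 genes were chosen on CK30 and CK170, and the comparison used RD80 and CK80. They had no FPKM minimum at 80 DAFB, whereas the shares of all genes were over those with 1 FPKM in CK80 or RD80. There were no replicate libraries, so the shares are descriptions.

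A further endochitinase 1-like gene, Cs8g01810, has the same best protein match as orange1.1t05124. Reads that match both copies are divided between them by the estimate the authors used, so their separate values are uncertain. Cs8g01810 was at 54.1 FPKM in CK30, 9.80 in RD30, and 2.65 in RD80, and was listed at 0 in CK80, CK170, and RD170. It was 5.52-fold lower in RD30 than in CK30 (log2 ratio −2.46) and was called higher in RD80, with no fold because CK80 was at 0. When the levels of the copies were summed, the log2 ratios of RD to CK peel were −1.66, 2.67, and 0.71 at the 3 stages, against −1.66, 2.64, and 0.71 for orange1.1t05124 alone. Summing them altered no call.

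The gene numbered directly after Cs8g01840, Cs8g01850, is described as a hypothetical protein, and it followed the chitinase closely. Its level was 3939 FPKM in CK30, 61.04 in CK80, and 2.5 in CK170, against 1805, 646, and 22.4 in RD30, RD80, and RD170. It was 2.18-fold lower in RD30 (log2 ratio −1.13), 10.6-fold higher in RD80 (3.40), and 8.96-fold higher in RD170 (3.16). The call thus matched that of Cs8g01840 at every stage. Its level relative to Cs8g01840 was 0.782 in CK30, 1.41 in CK80, and 3.73 in CK170, against 0.843, 1.48, and 3.37 in RD30, RD80, and RD170. This relative level differed between stages far more than between the peels of a stage.

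Of the other genes numbered around Cs8g01840, the endochitinase copy Cs8g01810 was itself lower in RD30 and higher in RD80, and Cs8g01800 and Cs8g01855 had no such course. Cs8g01800, described as XRI1-like, a gene whose Arabidopsis counterpart responds to X-rays, lay between 8.45 FPKM in CK170 and 19.1 in RD30. Cs8g01855, a hypothetical protein, lay between 4.8 in CK30 and 9.22 in CK170. Neither was called at any stage between RD and CK peel. The identifiers give the order of the genes, and their distances and strands were not analysed here.

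**Figure D3:**
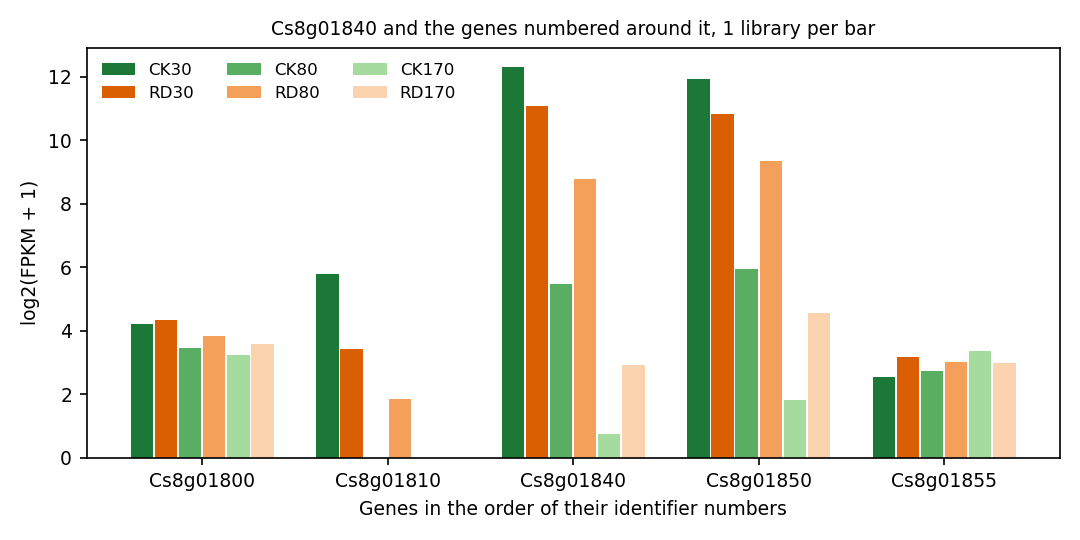
Log2(FPKM + 1) of Cs8g01840 and the 4 genes numbered around it in the 6 libraries, 1 library per bar, with CK peel in green, RD peel in orange and later stages paler. Cs8g01840 and Cs8g01850 share tall bars at 30 days (5036 and 3939 FPKM in CK30) and an RD80 bar above the CK80 bar, whereas Cs8g01800 and Cs8g01855 are nearly level.

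The rest of the chitinase family was far less abundant in young peel, and apart from Cs8g01810 none of the other 12 genes was lower in RD30 and higher in RD80. The pair made up 99.3% of the FPKM of all 14 genes in CK30 and 98.6% in RD30. The pair was chosen for its abundance in young peel, so its lead over the family there reflects that choice and is a description only. At 80 DAFB the share was 39.1% in CK80 and 91.8% in RD80, and at maturity 2.91% in CK170 and 22.9% in RD170. The other 12 genes summed to 82.2 FPKM in CK30, 105 in CK80, and 30.7 in CK170, against 63.6, 52.7, and 23.7 in RD30, RD80, and RD170. Single genes carried the gaps in these sums. Without Cs8g01810 the sum was 28.1 in CK30 and 53.8 in RD30, the opposite direction, and without Cs5g21900 it was 28.5 in CK80 and 28.2 in RD80.

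Of these 12 genes, 6 reached 1 FPKM in CK30 or RD30, and 3 were higher and 1 was lower in RD30, against 25.6% and 6.34% of all genes. At 80 DAFB, 6 reached 1 FPKM, and 2 were higher and 3 were lower in RD80, against 5.20% and 4.86% of all genes. At 170 DAFB, 7 reached 1 FPKM, and 1 was higher and 2 were lower in RD170, against 8.14% and 10.1%. The median log2 ratio of RD to CK peel was 0.64 at 30 DAFB, −1.0 at 80 DAFB, and −0.57 at 170 DAFB. It was taken over the 5, 5, and 7 of them that reached 1 FPKM in either library and were above 0 in both. The same over all genes within these limits was 0.48, 0.10, and −0.11. At 30 and 80 DAFB the family median was the value of 1 gene, Cs9g14710. Several of these genes were near 1 FPKM, and their counts varied with the FPKM minimum. Of the 3 genes higher in RD30, Cs5g21900 (0.61) and Cs8g17580 (0.98) were no longer called relative to the median gene.

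Cs5g21900, an endochitinase PR4-like gene, went the opposite way to the pair. Its level was 17.3 FPKM in CK30, 77.0 in CK80, and 1.52 in CK170, against 35.6, 24.5, and 0.94 in RD30, RD80, and RD170. It was 2.06-fold higher in RD30 (log2 ratio 1.04, but 0.61 and not called relative to the median gene), 3.14-fold lower in RD80 (−1.65), and not called in RD170 (−0.69). In CK80 it was therefore the most abundant of the 14 genes, above Cs8g01840 at 43.3 and orange1.1t05124 at 24.5.

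The chitinase-like protein 2-like gene Cs9g02520 belongs to a group that in Arabidopsis acts in cell wall formation and is not known for cutting chitin. Its level was 7.11 FPKM in CK30, 19.3 in CK80, and 0.95 in CK170, against 8.76, 19.0, and 3.68 in RD30, RD80, and RD170. Highest at 80 DAFB, it was called in RD170 alone, where it was 3.87-fold higher (log2 ratio 1.95).

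The acidic endochitinase-like gene Cs9g14710 was highest in mature peel, where the pair was lowest. Its level was 1.93 FPKM in CK30, 5.93 in CK80, and 16.8 in CK170, against 3.01, 2.96, and 11.7 in RD30, RD80, and RD170. In RD80 it was at the 2-fold limit, 2.0-fold lower (log2 ratio −1.0). It was the most abundant chitinase of mature peel in both CK170 and RD170. The remaining 8 genes, among them chitinase CHI1 precursor Cs5g21860 and chitinase 1-like Cs8g17580, stayed at 4.27 FPKM or less in each library.

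**Figure D4:**
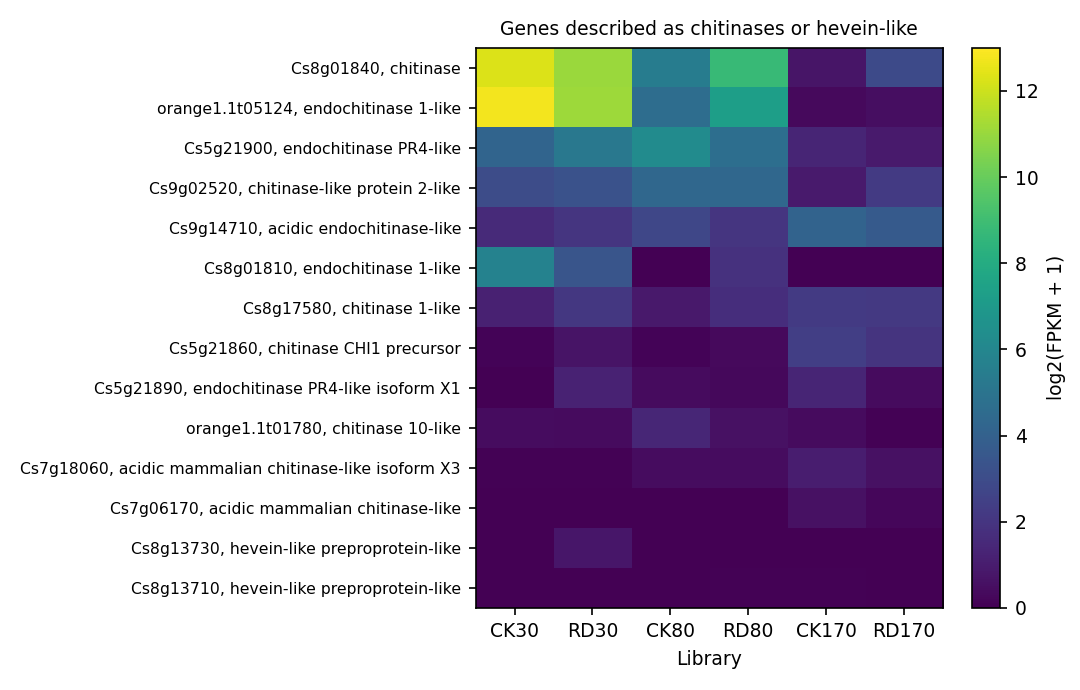
Heat map of log2(FPKM + 1) for the 14 genes described as chitinases or hevein-like proteins (rows) in the 6 libraries (columns), 1 library per column. The brightest cells are those of Cs8g01840 and orange1.1t05124 at 30 days, while Cs5g21900 is brightest in CK80 (77.0 FPKM) and Cs9g14710 in CK170 (16.8 FPKM).

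Other defence genes were counted in 7 lists made from the gene descriptions. Their counts are to be read beside the shares of all genes under the same rule, which were 25.6% higher and 6.34% lower in RD30, 5.20% and 4.86% in RD80, and 8.14% and 10.1% in RD170. The beta-1,3-glucanases cut the glucan of fungal walls and callose, and often accompany chitinases. Of 35 genes listed by description alone, 25 reached 1 FPKM at 30 DAFB, and 4 were higher and 2 lower in RD30. In RD80 the counts were 3 higher and 2 lower of 28, and in RD170 7 higher and 1 lower of 24. Relative to the median gene the count higher in RD80 was 1. The most abundant, Cs5g11770, was likewise highest at 30 DAFB and lowest at 170 DAFB. Its level was 352 FPKM in CK30, 121 in CK80, and 6.18 in CK170, against 347, 200, and 34.4 in RD30, RD80, and RD170, with log2 ratios of −0.02, 0.73, and 2.48, of which the last was called. Cs2g20640 had log2 ratios of 0.47, 1.06, and 2.54, and Cs7g11420 of 0.40, 0.34, and −0.07. Thus 2 of these 3 genes were called higher in RD170, and Cs2g20640 also in RD80. There it was at 0.97 and not called relative to the median gene.

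Miraculin-like proteins belong to the Kunitz family of protease inhibitors, some of which are induced by wounding. In CK30 Cs5g16770 and Cs5g16780 were of about the abundance of the chitinases, and in RD30 they were above them. Cs5g16770 was at 8194 FPKM in CK30, 1077 in CK80, and 7.12 in CK170, against 6498, 2248, and 116 in RD30, RD80, and RD170, with log2 ratios of −0.33, 1.06, and 4.02. Cs5g16780 was at 6159 FPKM in CK30, 1010 in CK80, and 13.9 in CK170, against 5748, 2239, and 252 in RD30, RD80, and RD170, with log2 ratios of −0.10, 1.15, and 4.18. Like Cs8g01840, both were called higher in RD80 and RD170, but neither was called lower in RD30. Relative to the median gene, Cs5g16770 was at 0.97 in RD80 and no longer called. They were the only genes called among the 5 of this list, of which 3 reached 1 FPKM at each stage. The other one was Cs1g17290, an inter-alpha-trypsin inhibitor heavy chain and not of the Kunitz family, with log2 ratios of −0.09, 0.48, and 0.70.

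Defensins and snakins are small antimicrobial peptides. Of the 7 in the list, 3 reached 1 FPKM at 30 DAFB and 1 was lower in RD30, 4 reached it at 80 DAFB and 1 was lower in RD80, and 3 reached it at 170 DAFB with 2 higher and 1 lower. The defensin-like gene Cs1g19393 had an early course like the pair in CK peel, with 481 FPKM in CK30 and 1.60 in CK80, against 265 in RD30 and 1.02 in RD80, and was listed at 0 in CK170 and RD170. Its log2 ratios, −0.86 and −0.65, were not called, but relative to the median gene it was at −1.29 in RD30, past the limit. The snakin-1-like gene Cs8g04550 was lower in RD30 (−1.32), was not called in RD80 (−0.87), and was higher in RD170 (1.65). Snakin-1-like Cs3g15690 was called in RD170 alone (1.1), with −0.38 in RD80 and 0.57 in RD30.

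Thaumatin-like proteins are a further pathogenesis-related family. Of the 9 genes listed by a description as thaumatin-like or osmotin, 7 reached 1 FPKM at 30 and 80 DAFB and 6 at 170 DAFB. At 30 DAFB 1 was higher (25.6% of all genes), at 80 DAFB none was called (5.20% higher and 4.86% lower of all genes), and at 170 DAFB 3 were higher and 2 lower (8.14% and 10.1%). Cs8g02870, the most abundant, was at 88.2 FPKM in CK30, 49.8 in CK80, and 2.61 in CK170, against 84.9, 77.0, and 13.5 in RD30, RD80, and RD170. It was called in RD170 alone (log2 ratio 2.38), as was Cs8g02880 (1.24), while Cs3g26240 was not called at any stage (−0.06, −0.78, and −0.33).

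Other pathogenesis-related proteins numbered 19. In RD30 3 of 11 were higher and 2 lower, in RD80 none of 9 was higher and 1 was lower, and in RD170 the counts were 3 higher and 4 lower of 11. Relative to the median gene the RD30 counts were 0 higher and 3 lower, so the balance at 30 DAFB turned with the scaling. PR-4A, Cs8g13740, of a family with chitin-binding members, was higher in RD30 (log2 ratio 1.27, but 0.84 and not called relative to the median gene) and not called later (0.68 and 0.38). Pathogenesis-related protein 5-like Cs7g02020, placed in this list by its description alone, was not called at any stage (0.36, −0.05, and −0.13). Cs2g05280, described as a transcriptional activator of such genes and not as such a protein, was lower in RD30 (−1.09) and RD170 (−1.33), with −0.31 in RD80.

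The genes listed as lysM proteins, a family that includes chitin receptors, had no called difference at 30 or 80 DAFB. There 6 of 9 genes reached 1 FPKM. At 170 DAFB 2 of 7 were lower. The lysM receptor-like kinase 4-like gene Cs9g08050 was at 57.3 FPKM in CK30, 24.6 in CK80, and 32.4 in CK170, against 32.9, 16.1, and 10.8 in RD30, RD80, and RD170, with log2 ratios of −0.80, −0.62, and −1.59. Relative to the median gene it was at −1.23 in RD30, past the limit. Cs3g19500 (−0.47, −0.13, and 0.61) and Cs8g01670 (0.10, −0.28, and −0.17), described as lysM proteins anchored in the membrane by GPI, were not called. The levels of these 3 genes lay between 9.64 and 57.3 FPKM, a far narrower range than that of the chitinases.

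Salicylate is a hormone of defence against pathogens. Of 19 genes of its binding, methylation, or signalling, 12 reached 1 FPKM at 30 DAFB with 5 higher and 1 lower, 11 at 80 DAFB with 7 higher and none lower, and 9 at 170 DAFB with none higher and 1 lower. Among all genes 25.6% were higher in RD30 and 5.20% in RD80. Relative to the median gene 3 were higher in RD30, 6 in RD80, and 2 in RD170. The salicylic acid-binding protein 2-like genes are named after an esterase that releases salicylate from its methyl ester. In them the difference was at 80 DAFB: Cs1g23200 had log2 ratios of −0.22, 2.09, and 1.0, and Cs1g23170 of 0.55, 1.55, and 0.98. At 170 DAFB both were just under the 2-fold limit and past it relative to the median gene (1.11 and 1.08). The salicylate carboxymethyltransferase-like gene Cs1g24440, named after an enzyme that makes methyl salicylate, shared the course of the chitinases at 30 and 80 DAFB and not at 170 DAFB. Its level was 63.2 FPKM in CK30, 2.95 in CK80, and 126 in CK170, against 15.2, 7.15, and 1.67 in RD30, RD80, and RD170, with log2 ratios of −2.06, 1.28, and −6.24.

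The genes with the most similar pattern were ranked by Pearson’s r on log2(FPKM + 1) over the 6 libraries among 12226 genes that reached 10 FPKM. This r compares the shape of the course and ignores the size of the change. With 6 points that share a strong decline, many genes score high: 278 had an r of at least 0.95 with Cs8g01840 and 245 with orange1.1t05124. The chitinases had an r of 0.985 with each other. This placed orange1.1t05124 at rank 31 in the ranking for Cs8g01840, and Cs8g01840 at rank 50 in that for orange1.1t05124.

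Most like Cs8g01840 were the uncharacterized Cs1g13290 (0.999), hypothetical protein Cs1g07350 (0.997), squamosa promoter-binding-like protein 9-like orange1.1t02265 (0.996), Cs8g01850 (0.996), and hypothetical protein Cs3g27050 (0.996). The changes of Cs1g07350 were small, from 11.57 FPKM in CK30 to 5.72 in CK170, with a log2 ratio of 0.23 in RD80. Squamosa promoter-binding-like proteins are transcription factors of phase change and organ growth. The level of orange1.1t02265 was 112 FPKM in CK30, 10.2 in CK80, and 0.42 in CK170, against 92.9, 36.7, and 1.90 in RD30, RD80, and RD170. It was not called at 30 DAFB (log2 ratio −0.27) and was higher at 80 DAFB (1.84) and 170 DAFB (2.18). Of these 5 genes, Cs8g01850 was thus the one that was also called lower in RD30, the others lying between −0.84 and −0.16. Relative to the median gene, Cs1g13290 was past the limit as well (−1.27).

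Most like orange1.1t05124 were the aspartic proteinase PCS1-like gene Cs6g06870 (0.999), cytochrome P450 93A1-like Cs9g13910 (0.997), the uncharacterized orange1.1t05920 (0.997), hypothetical protein Cs2g10240 (0.997), and glucan endo-1,3-beta-glucosidase 13-like Cs1g21760 (0.997). The changes of orange1.1t05920 were far smaller than those of the chitinase, from 13.91 FPKM in CK30 to 2.25 in CK170. PCS1 of Arabidopsis is a protease that protects reproductive cells from death. Cs9g13910 was at 119 FPKM in CK30 and 8.24 in CK80, against 70.2 in RD30 and 19.7 in RD80, and at 0.44 in both CK170 and RD170, with log2 ratios of −0.76, 1.26, and 0.00. None of the 5 was called lower in RD30, where their log2 ratios lay between −0.76 and −0.28, but relative to the median gene Cs9g13910 (−1.19) and Cs2g10240 (−1.003) were past the limit. Cs9g13910 and Cs2g10240 (1.01) were called higher in RD80, the latter no longer relative to the median (0.92).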

How the data were processed

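RNA from pooled peel was enriched for mRNA and sequenced in 6 libraries. The authors removed low-quality reads, aligned the cleaned reads with Bowtie and BWA to the genome of sweet orange, and deposited FPKM per gene, estimated with RSEM. Their versions are not given in the sources used here. The deposited FPKM are rounded to 2 decimals and were used without further scaling. Reads per gene were not used here, so the depth behind a value is unknown and no interval is given. Ratios, ranks, and counts were computed with Python 3.11.15, numpy 2.4.6, and pandas 2.3.3. The 2-fold rule follows the 2-fold limit of the study’s methods, without their test on reads. It was run on simulated data with larger planted changes, little noise, and no planted genes near 1 FPKM. That run cannot show how calls behave under the spread between fruits or near the FPKM minimum. Named were the 2 members, chitinase-family genes with 10 FPKM in any library, the 5 genes most like each member, the 3 genes of highest mean in each other list, and the 2 genes numbered on each side of Cs8g01840. Cs5g25690, Cs5g21860, Cs5g21890, Cs8g17580, and orange1.1t05126 fall outside this rule and were chosen after their values were seen. The members and all lists were chosen with earlier results of these data known. Alternatives were scaling to the median ratio or the upper quartile, a pseudocount, other FPKM minimums, a 4-fold limit, and, chosen after seeing the data, the sum of orange1.1t05124 and Cs8g01810.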

Additional observations from a re-analysis of the deposited data

Results flagged for a closer look

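In 7 named genes the ratio of RD to CK peel had opposite directions at different stages, each past the 2-fold limit. With 1 library per condition these differences between stages were not tested. Of the 18748 genes at 1 FPKM or more in any library, 41 were lower in RD30 and higher in RD80, and 146 the reverse. The pair and Cs5g25690 were chosen with their values known, so the count of 7 is not a result about these genes. The log2 ratio at 80 DAFB was 4.56 above that at 30 DAFB for Cs8g01840, 4.30 for orange1.1t05124, and 4.53 for the neighbouring Cs8g01850. At 170 DAFB it was 4.54 above that at 30 DAFB for Cs8g01840 and 4.29 for Cs8g01850. For the endochitinase PR4-like gene Cs5g21900 the difference between 80 and 30 DAFB had the other sign, −2.69, and its call at 30 DAFB was lost relative to the median gene. The snakin-1-like gene Cs8g04550 had a log2 ratio 2.97 higher at 170 than at 30 DAFB. In the salicylate carboxymethyltransferase-like gene Cs1g24440 the log2 ratio was 3.34 higher at 80 than at 30 DAFB, and the difference between 170 and 80 DAFB was −7.52. For the hypothetical protein Cs5g25690 the log2 ratio was 2.59 higher at 80 and 4.03 higher at 170 than at 30 DAFB. The endochitinase 1-like copy Cs8g01810 also had opposite calls at 30 and 80 DAFB, with no ratio at 80 DAFB because CK80 was listed at 0. Another gene, the endochitinase PR4-like Cs5g21890, was near the FPKM minimum. It was called higher in RD30 (1.41 FPKM, with CK30 listed at 0) and lower in RD170 (0.31 against 1.55 in CK170).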

How the results depend on the processing

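The log2 ratios of Cs8g01840 and orange1.1t05124, between peels and between stages, kept their direction and their side of the 2-fold limit in all 49 alternatives run. These alternatives were the other scalings, the pseudocount, and the summed copies. The 4-fold limit was applied to family counts only. At 2.35-fold and 3.16-fold lower in RD30, Cs8g01840 and orange1.1t05124 do not reach that limit. Of 86 alternatives for counts and likeness, 60 stayed within 1.5 times the value given. Counts of chitinase-family genes, here with the pair, were small, and many moved. In RD30, 3 were higher and 3 lower. The count of higher genes was 1 relative to the median gene, with a pseudocount of 1, or with an FPKM minimum of 5. It was also 1 with a 4-fold limit, and 5 without a minimum. The count of lower genes was 1 with the 4-fold limit, since neither gene of the pair reached it in RD30. In RD80, 4 were higher and 3 lower, with 2 higher at a minimum of 5, and 1 lower with a pseudocount of 1 and 0 with the 4-fold limit. In RD170, 2 were higher and 2 lower, with 1 higher at a minimum of 5 or a 4-fold limit. The lower ones were then 0 with a pseudocount of 1 or a minimum of 5, 5 without a minimum, and 1 with the 4-fold limit. In the other 7 defence lists, 13 genes were higher and 6 lower in RD30, against 25.6% and 6.34% of all genes. With ratios set against the median over all genes, 7 were higher and 10 lower. That median was 0.43 on the log2 scale for genes of at least 1 FPKM in both libraries. Shares of all genes under that scaling are not given, so the turn cannot be read as a trait of defence genes. With a pseudocount of 0.1, 3 of the 5 genes most like Cs8g01840 and 2 of the 5 most like orange1.1t05124 were shared with those named. No paired analysis was possible because each ratio compared 1 library with another and no replicate numbers pair libraries within a stage. A fit of peel with stage as a block, which would average over the stages, was not run. The absence of replicates, the unknown depth per gene, and the confounding of the disorder with tree and fruit load limit every comparison.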
